A study of Mus musculus with 32 samples.

Results

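The 10 genes described here are 5 cathepsins (Ctss, Ctsb, Ctsl, Ctsc and Ctsz) and 5 serpins (Serpinb9, Serpina3f, Serpina3g, Serpina3n and Serpinb6b), found by symbol among the 54429 symbols of the deposited count table. They were chosen by their levels in these data, and in particular by a higher level of Ctss and a lower level of Serpinb9 after silencing of Dnmt1. The differences between the siRNAs are therefore given as a description, with no test, and tests are kept for the cytokine responses and the interactions. Each of the 10 symbols had 1 identifier. A filter on low counts passed 9 of them, and Ctsc, with at most 13 counts in any library, was left out of the fit.

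The data are bulk RNA-seq of Veravec cells, a line of mouse lung endothelial cells (ECs), transfected on 2 occasions with a control siRNA (si-control) or an siRNA against Dnmt1 (si-dnmt), the maintenance DNA methyltransferase. Cells of each siRNA then received no cytokine, TNF (TNFα, 10 ng/mL), IFN (IFNγ, 1000 U/mL) or TNF + IFN for 16 h, which makes 8 groups of 4 replicates and 32 libraries. All groups are cultures of 1 line, and all were transfected. The labels call the replicates biological without saying what separates them, so a p-value measures the spread between these libraries, which may in part be technical.

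Cathepsins are proteases that mostly work in the acid interior of lysosomes and endosomes, where they degrade proteins, process antigens and activate other enzymes. Serpins are inhibitors that trap a protease by offering it a loop as bait, and the granule proteases of cytotoxic lymphocytes and the cathepsins are among their targets. In ECs, IFNγ and TNFα switch on antigen presentation genes, and several lysosomal proteases and intracellular serpins belong to that inflammatory programme.

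Total counts were 17362546 to 33500030 per library (median 20859668). Dnmt1 was at 86.5 to 211 CPM (counts scaled to a common library size with edgeR's TMM factors) in the 16 si-control libraries and at 5.11 to 17.3 CPM in the 16 si-dnmt libraries, so every library matched its siRNA label. Replicates 1 and 2 lay apart from replicates 3 and 4 on the first principal component in all 8 groups, and the labels do not say why. Calls within either replicate set rest on the smaller spread between its own libraries, which were not shown to be independent. Where a replicate set alone changed a call of a member or turned its direction, its value is given here or in the closing section. The exception is the interactions of Ctsb, Ctsl, Ctsz and Serpina3n, whose calls in a replicate set enter only as counts. All 10 endothelial markers were expressed. Their summed level was 5485 to 9820 CPM in the 4 groups without TNF and 3724 to 5952 CPM in the 4 with TNF. Against no cytokine, 4 of the 10 were called lower with TNF in si-control and 6 in si-dnmt, 7 and 8 were called lower with TNF + IFN, and none was called higher. Of 14 leukocyte markers, 8 had at most 10 counts in every library, among them Ptprc (at most 3 counts), Adgre1 (2), Itgax (4), Tyrobp (1) and Cd3e (0). The summed level of the leukocyte list was 112 to 277 CPM in the 4 groups without IFN and 348 to 875 CPM in the 4 with IFN, and Mpeg1 made up most of it there (433 CPM on average in si-control + IFN, against 1.02 CPM in si-control). Of 6 pericyte and smooth muscle markers, Acta2 carried the list and moved with the siRNA, with a summed level of 7.79 to 69.4 CPM over the si-control groups and 39.5 to 230 CPM over the si-dnmt groups, while Rgs5 had at most 1 count. The 6 fibroblast markers summed to 17.9 to 80.6 CPM with si-control and 10.8 to 34.5 CPM with si-dnmt, and the 6 epithelial markers to at most 25.9 CPM in any library. The part of these genes in the members' results was not tested. In bulk RNA, more cells that express a gene and more RNA of it per cell cannot be told apart.

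The sequences just upstream of 4 members are shown first, because these 4 had the largest siRNA differences or the largest cytokine responses of the group and carry short interferon-type motifs. Of the 10 members, 9 had an entry in the RefSeq promoter table of GRCm38.p6 and Ctsb had none. Each sequence is the 250 bases before the annotated start, read 5′ to 3′ on the gene's strand, and capitals mark a motif found on either strand. The motifs searched were the interferon-stimulated response element (ISRE, the letters GAAA, NN and GAAA in a row), the gamma-activated site (GAS, TTCNNNGAA), a κB site (GGG, NN and TTTCC in a row) and the E-box CACGTG bound by lysosomal regulators of the TFEB family. The window of Ctss lies at chr3:95526536-95526785, that of Serpinb9 at chr13:33004291-33004540, Serpina3f at chr12:104214294-104214543 (the first of its annotated starts) and Serpina3g at chr12:104235897-104236146, all on the plus strand.
Ctss: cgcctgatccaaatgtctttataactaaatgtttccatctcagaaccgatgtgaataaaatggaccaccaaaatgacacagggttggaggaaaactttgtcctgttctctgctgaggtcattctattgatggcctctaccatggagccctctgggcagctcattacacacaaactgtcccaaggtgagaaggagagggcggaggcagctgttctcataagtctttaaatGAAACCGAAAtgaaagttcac
Serpinb9: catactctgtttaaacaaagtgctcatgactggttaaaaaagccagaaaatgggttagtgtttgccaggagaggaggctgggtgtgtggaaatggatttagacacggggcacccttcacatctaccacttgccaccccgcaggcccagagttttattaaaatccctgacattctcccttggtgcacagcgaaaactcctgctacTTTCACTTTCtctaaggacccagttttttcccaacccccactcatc
Serpina3f: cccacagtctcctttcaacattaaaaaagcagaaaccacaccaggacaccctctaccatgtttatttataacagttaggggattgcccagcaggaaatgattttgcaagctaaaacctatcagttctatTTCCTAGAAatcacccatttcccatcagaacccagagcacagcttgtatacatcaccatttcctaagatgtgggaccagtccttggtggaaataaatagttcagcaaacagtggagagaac
Serpina3g: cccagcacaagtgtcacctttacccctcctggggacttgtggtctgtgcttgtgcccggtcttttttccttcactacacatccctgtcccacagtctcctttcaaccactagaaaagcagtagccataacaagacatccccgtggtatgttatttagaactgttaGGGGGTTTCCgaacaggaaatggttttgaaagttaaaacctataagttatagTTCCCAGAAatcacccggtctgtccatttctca

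The capitals in Ctss are an ISRE, GAAACCGAAA, 21 to 12 bases before the start. Serpinb9 held an ISRE on the minus strand, TTTCACTTTC as printed, 46 to 37 bases before the start. An ISRE stood in 2.98% of 32851 promoter windows of the same length. Serpina3f held the GAS TTCCTAGAA, and Serpina3g held the GAS TTCCCAGAA beside the κB site GGGGGTTTCC, with no base shared between them. A GAS stood in 7.02% of all windows and a κB site in 1.41%. Of the members not printed, Serpina3n held a κB site, Ctsc a GAS and Ctsl an E-box (6.02% of all windows), and no motif was found in the windows of Ctsz and Serpinb6b. The number of CpG dinucleotides, the bases that Dnmt1 methylates, was 4 in Ctss, 3 in Serpinb9, 0 in Serpina3f and 4 in Serpina3g, against a median of 6 over all windows (quartiles 2 and 16). Methylation itself was not measured, and a match of letters is no evidence of binding.

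Ctss, the cathepsin that trims the invariant chain during MHC class II antigen presentation, was near the limit of detection in resting cells and rose with IFN under either siRNA. In si-control its level was 0, 0.106, 0 and 0.179 CPM in replicates 1 to 4, which is 6 counts in all. With TNF it was 0.129, 0.281, 0.519 and 0.232 CPM, and with IFN 3.59, 3.85, 1.58 and 2.43 CPM. The IFN libraries lay above every library of the former 2 groups, which overlapped each other. With TNF + IFN the level was 6.73, 8.54, 2.96 and 2.96 CPM, a range that overlapped that of IFN alone.

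In si-dnmt, Ctss was at 0.401, 0.428, 0.307 and 0.243 CPM without cytokine, all above the 4 si-control libraries. TNF gave 6.68, 9.34, 3.14 and 3.09 CPM, IFN 29.9, 34.4, 14.3 and 14.4 CPM, and TNF + IFN 51.0, 56.3, 19.9 and 23.7 CPM. In each of the 4 cytokine states every si-dnmt library was above every si-control library of that state, as was the case for 11.1%, 11.5%, 11.9% and 11% of all tested genes without cytokine, with TNF, with IFN and with both. The si-dnmt + TNF libraries overlapped the si-control + TNF + IFN libraries (means 5.56 and 5.30 CPM). The fitted log2 difference of si-dnmt against si-control was 2.18 ± 0.97 (SE) without cytokine, 4.23 ± 0.57 with TNF, 3.02 ± 0.45 with IFN and 2.82 ± 0.43 with TNF + IFN. As a ratio of summed counts these were 4.78 (95% counting interval 1.99 to 13.9), 19.3 (13.0 to 29.8), 7.69 (6.67 to 8.90) and 6.77 (6.10 to 7.54), intervals that cover counting error only. The difference without cytokine was 2.92 ± 0.83 on the log2 scale in replicates 1 and 2 and 1.57 ± 0.77 in replicates 3 and 4. That with TNF was 5.27 ± 0.33 on the log2 scale in replicates 1 and 2 and 3.01 ± 0.36 in replicates 3 and 4, whereas that with TNF + IFN was 2.81 ± 0.17 and 2.88 ± 0.22.

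**Figure D1:**
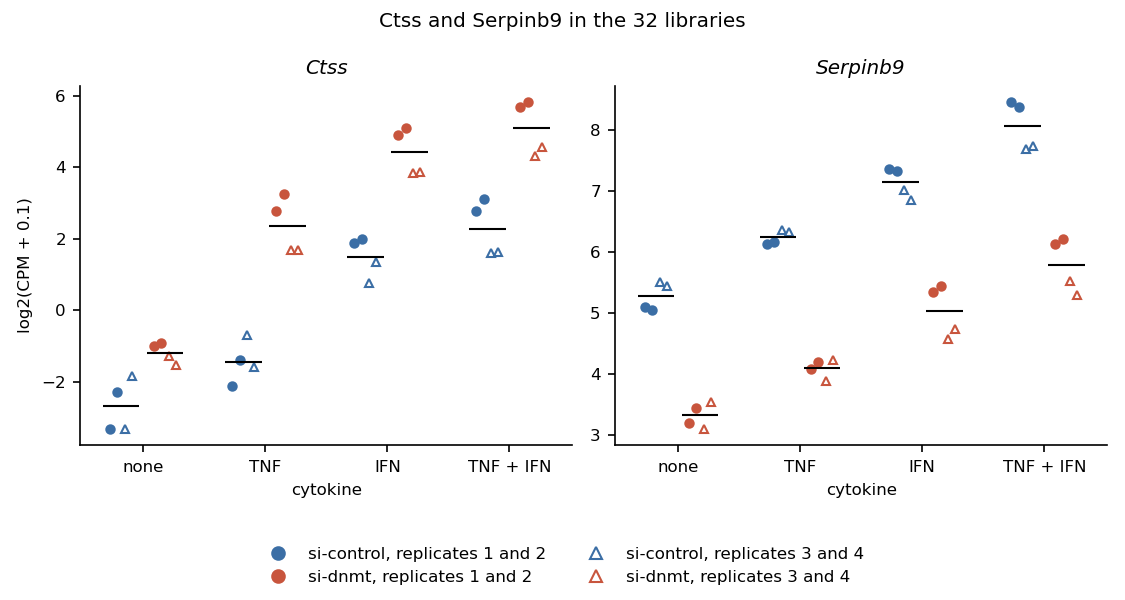
Level of Ctss (left) and Serpinb9 (right) as log2(CPM + 0.1) in each of the 32 libraries (y axis, a separate scale per panel) by cytokine (x axis), with si-control in blue, si-dnmt in red, replicates 1 and 2 as filled circles, replicates 3 and 4 as open triangles, and the group mean as a black line. Within each cytokine state all 4 si-dnmt libraries lie above the si-control libraries for Ctss and below them for Serpinb9.

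The response of Ctss to IFN was called under both siRNAs (edgeR's quasi-likelihood test, adjusted over 15254 genes). Ctss passed the low-count filter only through groups in which a cytokine had raised it. Its place among the tested genes therefore depends on the response tested, and its calls are no independent support for that response. Against no cytokine it rose by 5.23 ± 0.75 on the log2 scale in si-control (adjusted p = 5.66e-06) and by 6.07 ± 0.55 in si-dnmt (adjusted p = 2.41e-09). As ratios of summed counts these were 40.7 (18.4 to 112) and 65.5 (46.9 to 94.3). TNF + IFN gave 6.12 ± 0.71 (adjusted p = 4.93e-08) and 6.77 ± 0.56 (adjusted p = 9.23e-11). The TNF response was called in si-dnmt, at 4.01 ± 0.54 (adjusted p = 3.69e-06), and not in si-control, at 1.96 ± 1.01 (adjusted p = 0.148), where it rested on 26 against 6 counts. With the replicate number as a block, the si-control response was 1.96 and was called (adjusted p = 0.018), as it was in replicates 3 and 4 alone (2.03, adjusted p = 0.0317). DESeq2 called it too (2.05, adjusted p = 0.0299). The difference between the siRNAs in the TNF response was 2.05 ± 1.46 on the log2 scale (95% interval -0.80 to 4.91, adjusted p = 0.908), so that a larger TNF response in si-dnmt was not shown. In si-dnmt, TNF and IFN together gave less than the sum of their single responses, by 3.31 ± 0.68 on the log2 scale (adjusted p = 0.0176). That interaction was not called when si-dnmt replicate 3 (adjusted p = 0.0568), si-dnmt replicate 4 (0.0611) or si-dnmt + TNF replicate 2 (0.0639) was left out, and was called within each replicate set (-3.52, adjusted p = 7.17e-07, and -2.87, adjusted p = 0.000153).

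Serpinb9, the intracellular inhibitor of granzyme B that protects cells against cytotoxic granules, went the other way with the siRNA. In si-control it was at 34.2, 33.2, 45.7 and 43.6 CPM in replicates 1 to 4, and in si-dnmt at 9.08, 10.9, 8.53 and 11.6 CPM. With TNF the levels were 70.4, 71.7, 81.8 and 80.4 CPM in si-control and 16.9, 18.2, 14.7 and 18.7 CPM in si-dnmt. The si-dnmt libraries with TNF stayed below the si-control libraries without any cytokine. With IFN the levels were 164, 160, 130 and 116 CPM in si-control and 40.9, 43.6, 23.8 and 26.7 CPM in si-dnmt. With TNF + IFN they were 350, 331, 207 and 213 CPM in si-control and 70.5, 73.8, 45.8 and 39.2 CPM in si-dnmt. All 4 si-dnmt libraries were below all 4 si-control libraries in each state, as for 10.1%, 11.2%, 10.1% and 10.9% of all tested genes in the same order, and the highest si-dnmt group overlapped the range of si-control + TNF and of si-control. The log2 difference was close in the 4 states, at -1.97 ± 0.22 without cytokine, -2.15 ± 0.21 with TNF, -2.08 ± 0.21 with IFN and -2.26 ± 0.21 with TNF + IFN. Across the replicate sets it ranged from -1.75 ± 0.10 (replicates 1 and 2, no cytokine) to -2.31 ± 0.12 (replicates 3 and 4, TNF + IFN).

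Both cytokines raised Serpinb9 under either siRNA. In si-control TNF gave a log2 rise of 0.96 ± 0.21 (adjusted p = 0.000732), IFN one of 1.86 ± 0.21 (adjusted p = 9e-08) and both cytokines one of 2.81 ± 0.22 (adjusted p = 1.68e-11). In si-dnmt it was 0.77 ± 0.21 (adjusted p = 0.00971), 1.75 ± 0.21 (adjusted p = 5.72e-07) and 2.51 ± 0.22 (adjusted p = 2.45e-10). The siRNA-by-cytokine interactions were -0.18 (95% interval -0.76 to 0.40) for TNF, -0.11 (-0.69 to 0.46) for IFN and -0.30 (-0.87 to 0.28) for TNF + IFN, and none was called (adjusted p = 0.874 to 1). No departure of the combined response from the sum of the single responses was shown on the log2 scale, with a TNF-by-IFN interaction of -0.01 ± 0.28 in si-control and -0.01 ± 0.29 in si-dnmt. The IFN response in si-control was 2.29 ± 0.09 in replicates 1 and 2 and 1.46 ± 0.11 in replicates 3 and 4. In replicates 1 and 2 alone the interaction with TNF + IFN was -0.50 (adjusted p = 0.0312).

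The genes whose group means over the 8 groups were most like those of Ctss, by Pearson's r of mean log2 CPM, were Pnpla7 (r = 0.990), H2-T24 (0.987), Lrrc51 (0.978) and Gm2619 (0.973). Their highest group means were 48.3, 16.7, 5.19 and 7.89 CPM, against 37.7 CPM for Ctss. Those most like Serpinb9 were Micu2 (r = 0.991), Phf20 (0.984), Psip1 (0.984) and Mms19 (0.983). These 4 covered a far narrower range, Micu2 from 55.1 to 78.6 CPM over the groups, where Serpinb9 went from 10.0 to 275 CPM. With 8 points that share libraries, these values are a description of pattern.

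The pattern of Ctss and Serpinb9 was compared with that of the tested genes beside them. The nearest tested genes on either side of Ctss, Arnt and Golph3l, differed between si-dnmt and si-control by -0.26 to -0.04 on the log2 scale, and Arnt with TNF + IFN was the only one of these 8 comparisons called (-0.26 ± 0.08, adjusted p = 0.0323). Serpinb9 lies between Serpinb6b, also a member, and Serpinb9b. Serpinb9b, a close relative of Serpinb9, differed by 0.23 to 0.67, was called in none of the 4 states (adjusted p = 0.527 to 0.86), and had a large spread, 56.5 to 232 CPM in si-dnmt. The nearest tested gene before Serpina3f was Ifi27l2b, which is not adjacent, with 17 untested protein-coding genes between them. Ifi27l2b was higher with si-dnmt in all 4 states (0.85 to 1.96, adjusted p = 5.44e-07 to 0.00373), as was Dicer1, after Serpina3n (0.29 to 0.51, adjusted p = 2.41e-05 to 0.00795). Serpina3i, Serpina3m and Serpinb1c were called in none of the 4 states by edgeR.

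Serpina3f and Serpina3g, inhibitors of the mouse Serpina3 cluster of which Serpina3g is known to act on cathepsins, had the highest levels per kilobase of exon among the members in all 4 groups with IFN. The length used joins all annotated exons of a gene, and this ranking depends on it. Both lie in tandem in that cluster, and 3.40% of Serpina3f and 3.49% of Serpina3g 100-base stretches also occurred in other genes or pseudogenes of it, so that reads can be split between paralogs and their values carry that uncertainty. Serpina3f was at 1.17, 2.07, 0.352 and 0.493 CPM in si-control and at 672, 803, 333 and 337 CPM with IFN. With TNF it was at 21.3, 30.9, 4.71 and 4.27 CPM, and with TNF + IFN at 997, 986, 453 and 475 CPM. The groups with and without IFN stood far apart, and in every group replicates 1 and 2 were above replicates 3 and 4. In si-dnmt it was at 3.43, 4.62, 2.15 and 1.74 CPM without cytokine, 33.4, 41.1, 8.95 and 9.77 CPM with TNF, 586, 665, 362 and 373 CPM with IFN and 901, 1013, 532 and 541 CPM with TNF + IFN. The siRNA difference of Serpina3f without cytokine was 1.57 ± 0.71 on the log2 scale, with 1.34 ± 0.29 in replicates 1 and 2 and 2.19 ± 0.25 in replicates 3 and 4. With TNF it was 0.61 ± 0.54, with 0.52 ± 0.15 and 1.05 ± 0.12 in the sets. With IFN the pooled difference was -0.11 ± 0.52 and with TNF + IFN 0.04 ± 0.52.

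IFN raised Serpina3f by 9.07 ± 0.78 on the log2 scale in si-control (adjusted p = 4.1e-10) and by 7.39 ± 0.70 in si-dnmt (adjusted p = 4.93e-09). TNF raised it by 3.94 ± 0.68 (adjusted p = 6.4e-05) and 2.98 ± 0.60 (adjusted p = 0.00061). The rise with TNF + IFN was 9.51 ± 0.79 (adjusted p = 7.05e-11) and 7.98 ± 0.72 (adjusted p = 4.66e-10). All 3 responses were smaller in si-dnmt in the estimate, by 0.96 to 1.68 on the log2 scale, and no interaction was called over all libraries (adjusted p = 0.658 to 1). With the replicate number as a block the interaction with TNF + IFN was called (-1.53, adjusted p = 0.0375). Within replicates 1 and 2 the interaction was called for IFN (-1.59, adjusted p = 0.00637) and also for the combination (-1.40, adjusted p = 0.0107), and within replicates 3 and 4 all 3 were (-1.13, adjusted p = 0.0228, -2.06, adjusted p = 0.000111, and -1.98, adjusted p = 2.28e-05).

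The combined response of Serpina3f also fell short of the sum of the single responses. The TNF-by-IFN interaction was -3.50 ± 0.86 in si-control (adjusted p = 0.0368). It was -2.39 ± 0.78 in si-dnmt (adjusted p = 0.35), where it was called with the block (-2.25, adjusted p = 0.000102) and within each replicate set (-2.60, adjusted p = 3.2e-07, and -1.71, adjusted p = 1.3e-07). In si-control, leaving out single libraries ended the call in 9 of 16 cases, with a log2 value of -4.07 to -2.90 over all 16 and an adjusted p of up to 0.125. The 9 were replicates 1, 3 and 4 of si-control (adjusted p = 0.0736, 0.0911 and 0.0852), replicates 1 and 2 of si-control + TNF (0.084 and 0.125) and of si-control + IFN (0.0743 and 0.0742), and replicates 3 and 4 of si-control + TNF + IFN (0.0759 and 0.0744).

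Serpina3g was already expressed without cytokine, at 169, 200, 40.1 and 45.6 CPM in si-control, and reached 1206, 1398, 755 and 757 CPM with IFN. TNF gave 306, 356, 94.6 and 96.4 CPM, and TNF + IFN 1169, 974, 576 and 632 CPM. Replicates 1 and 2 of the cells without cytokine were above replicates 3 and 4 with TNF, so that the groups overlapped although each set rose with TNF. In si-dnmt it was at 226, 222, 71.1 and 65.7 CPM without cytokine, 281, 299, 86.7 and 88.5 CPM with TNF, 1150, 1277, 691 and 759 CPM with IFN and 1072, 1073, 572 and 583 CPM with TNF + IFN. The 2 siRNAs overlapped in each cytokine state, and the fitted log2 differences were -0.17 to 0.36, each with an SE of 0.53. IFN raised Serpina3g by 3.18 ± 0.58 in si-control (adjusted p = 0.000177) and 2.73 ± 0.56 in si-dnmt (adjusted p = 0.00121). The TNF response was not called, at 0.91 ± 0.53 in si-control (adjusted p = 0.21) and 0.37 ± 0.53 in si-dnmt (adjusted p = 0.69). With the block the si-control response was called (0.96, adjusted p = 0.000483), and within the sets TNF raised Serpina3g by 0.86 ± 0.11 and 1.15 ± 0.09 in si-control and by 0.38 ± 0.11 and 0.36 ± 0.08 in si-dnmt, all called (adjusted p = 1.95e-10 to 0.00826). The siRNA-by-cytokine interactions of Serpina3g were -0.54 to -0.39 over all libraries (adjusted p = 0.951 to 1). In replicates 3 and 4 alone they were called for TNF (-0.80, adjusted p = 0.000157), IFN (-0.73, adjusted p = 0.00129) and the combination (-0.74, adjusted p = 0.000188), and in replicates 1 and 2 alone none was (-0.48 to -0.29, adjusted p = 0.14 to 0.36). Serpina3g had a lower mean with TNF + IFN than with IFN (838 against 1029 CPM in si-control and 825 against 969 CPM in si-dnmt). The ranges of these groups overlapped, and at each of the 4 replicate numbers the TNF + IFN library was the lower under either siRNA. That difference was not tested. The TNF-by-IFN interaction in si-control was -1.20 ± 0.75 (adjusted p = 0.68) and with the block -1.27 (adjusted p = 0.0107). It was called within each replicate set in si-control (-1.15, adjusted p = 1.59e-05, and -1.48, adjusted p = 1.3e-08) and in si-dnmt (-0.55, adjusted p = 0.0363, and -0.69, adjusted p = 0.00104).

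**Figure D2:**
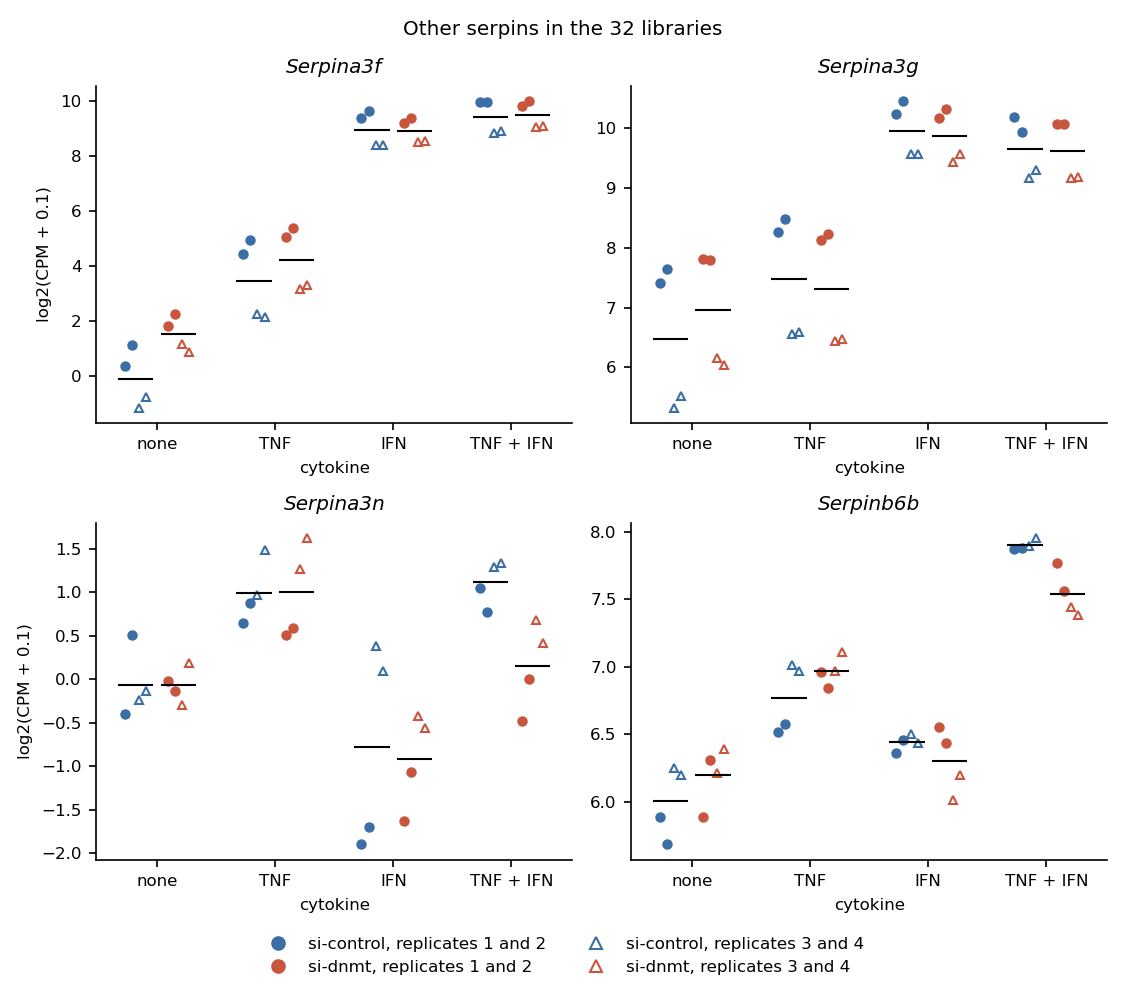
Level of Serpina3f, Serpina3g, Serpina3n and Serpinb6b as log2(CPM + 0.1) in each of the 32 libraries (y axis, a separate scale per panel) by cytokine (x axis), with si-control in blue, si-dnmt in red, replicates 1 and 2 as filled circles, replicates 3 and 4 as open triangles, and the group mean as a black line. For Serpina3f and Serpina3g the filled circles lie above the triangles in all 8 groups, and for both the IFN groups lie above all groups without IFN.

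Serpina3n, a secreted serpin of the same cluster, stayed low, with group means of 0.455 to 2.09 CPM. TNF raised it, from 0.657 to 1.33 CPM in si-control to 1.46 to 2.69 CPM, a log2 change of 1.13 ± 0.40 (adjusted p = 0.0313), and by 1.20 ± 0.40 in si-dnmt (adjusted p = 0.0292). Each of these calls was lost in 5 of 8 cases when 1 library was left out (adjusted p up to 0.109 and 0.115), namely replicates 1, 3 and 4 of si-control and 1, 2 and 3 of si-dnmt, and replicates 3 and 4 of either TNF group. TNF + IFN raised it in si-control, by 1.24 ± 0.40 (adjusted p = 0.0128), and in si-dnmt the change was 0.30 ± 0.41 (adjusted p = 0.601). The response to IFN divided the replicate sets: in si-control it was -2.31 ± 0.55 in replicates 1 and 2 (adjusted p = 0.00316) and 0.48 ± 0.38 in replicates 3 and 4 (adjusted p = 0.428), with a pooled value of -0.46 ± 0.43 (adjusted p = 0.573). In si-dnmt it was -1.44 ± 0.49 (adjusted p = 0.0423) and -0.53 ± 0.36 (adjusted p = 0.384) in these sets. The siRNA difference of Serpina3n was -0.02 ± 0.41 without cytokine, 0.05 ± 0.38 with TNF, -0.45 ± 0.45 with IFN and -0.96 ± 0.40 with TNF + IFN, where all 4 si-dnmt libraries (mean 1.06 CPM) were below the si-control libraries (mean 2.09 CPM). In that state this was so for 10.9% of all tested genes. The value with IFN combined opposite directions, 0.68 ± 0.67 in replicates 1 and 2 and -0.84 ± 0.38 in replicates 3 and 4.

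Serpinb6b, an intracellular serpin encoded beside Serpinb9, responded most to the cytokines together. In si-control it was at 59.1, 51.4, 76.0 and 73.5 CPM without cytokine, 91.5, 95.2, 129 and 125 CPM with TNF, 82.3, 88.0, 90.8 and 86.6 CPM with IFN and 234, 235, 238 and 248 CPM with TNF + IFN. In si-dnmt it was at 59.1, 79.4, 74.3 and 83.9 CPM, 124, 115, 125 and 138 CPM, 93.8, 86.5, 64.7 and 73.4 CPM, and 218, 189, 174 and 167 CPM in the same order. The TNF + IFN libraries stood above all others under both siRNAs, and those of si-dnmt lay below those of si-control, as for 10.9% of all tested genes. TNF raised Serpinb6b by 0.76 ± 0.13 on the log2 scale under either siRNA (adjusted p = 6.26e-05 in si-control and 0.000107 in si-dnmt), and TNF + IFN by 1.88 ± 0.14 (adjusted p = 4.05e-12) and 1.33 ± 0.13 (adjusted p = 3.28e-09). The difference between those 2 combined responses, -0.54 ± 0.19, was not called over all libraries (adjusted p = 0.251). Replicates 3 and 4 alone gave a call (-0.59, adjusted p = 0.00191), and replicates 1 and 2 alone gave none (-0.54, adjusted p = 0.0562). The IFN response was called in si-control, at 0.42 ± 0.13 (adjusted p = 0.0298), and not in si-dnmt, at 0.10 ± 0.13 (adjusted p = 0.778), where replicates 1 and 2 alone gave 0.38 (adjusted p = 0.0217) and replicates 3 and 4 alone -0.19 (adjusted p = 0.139). The call in si-control was lost in 6 of 8 cases with 1 library left out, which were replicates 1 and 2 of si-control and all 4 of si-control + IFN (adjusted p = 0.0537 to 0.14). The TNF-by-IFN interaction in si-control was 0.70 ± 0.19, that is a combined response above the sum of the single responses, and missed the threshold (adjusted p = 0.0669), while it was called with the block (adjusted p = 0.0228) and within each set (0.69 in both, adjusted p = 0.00716 and 0.000745). In si-dnmt only replicates 3 and 4 gave a call on their own (0.57, adjusted p = 0.00856). Serpinb6b and Serpinb9 are adjacent genes, and the siRNA difference of Serpinb6b was 0.19 ± 0.13 without cytokine, 0.19 ± 0.13 with TNF, -0.13 ± 0.13 with IFN and -0.35 ± 0.13 with TNF + IFN, where Serpinb9 differed by -2.26 to -1.97. In the sets the difference of Serpinb6b was 0.0681 ± 0.12 and -0.36 ± 0.0852 with IFN, and -0.21 ± 0.11 and -0.51 ± 0.0827 with TNF + IFN.

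Of the other cathepsins, Ctsz, a lysosomal carboxypeptidase, rose with the cytokines together. Its libraries were at 188, 167, 167 and 146 CPM in si-control, 184, 159, 180 and 204 CPM with TNF, 184, 206, 159 and 177 CPM with IFN and 275, 265, 262 and 243 CPM with TNF + IFN. In si-dnmt they were at 213, 184, 165 and 170 CPM, 266, 274, 282 and 233 CPM, 212, 233, 208 and 203 CPM, and 300.1, 341, 346 and 339 CPM in the same order. Both TNF + IFN groups lay above the untreated group of the same siRNA, and the si-dnmt + TNF libraries overlapped those of si-control + TNF + IFN. TNF + IFN raised Ctsz by 0.65 ± 0.10 in si-control (adjusted p = 2.52e-06) and 0.86 ± 0.10 in si-dnmt (adjusted p = 2.68e-08). TNF raised it in si-dnmt, by 0.53 ± 0.10 (adjusted p = 0.000172), and in si-control the change was 0.12 ± 0.10 (adjusted p = 0.361). In replicates 3 and 4 alone the si-control response to TNF was called (0.29, adjusted p = 0.0151), as was the si-dnmt response to IFN (0.30, adjusted p = 0.0322), and in replicates 1 and 2 alone neither was (-0.0355, adjusted p = 0.824, and 0.17, adjusted p = 0.305). The difference between these TNF responses was 0.41 ± 0.13, with an unadjusted p of 0.00528 in edgeR's test and an adjusted p of 0.463. The siRNA difference of Ctsz was 0.13 ± 0.10 without cytokine, 0.54 ± 0.10 with TNF, 0.24 ± 0.10 with IFN and 0.34 ± 0.10 with TNF + IFN (0.24 ± 0.10 and 0.44 ± 0.0939 in the replicate sets).

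Ctsl and Ctsb, the broad lysosomal cathepsins, were abundant and moved little. Ctsl had group means of 548 to 802 CPM and fell with TNF, by 0.36 on the log2 scale in si-control (SE 0.10, adjusted p = 0.00818) and by 0.29 in si-dnmt (SE 0.10, adjusted p = 0.0423). The latter call was lost without replicate 1, 3 or 4 of si-dnmt or replicate 1 or 2 of si-dnmt + TNF (adjusted p = 0.071 to 0.153). With TNF + IFN Ctsl changed by -0.32 ± 0.10 (adjusted p = 0.0129) and -0.37 ± 0.10 (adjusted p = 0.00466). With IFN it changed by -0.17 ± 0.10 in si-control (adjusted p = 0.333) and -0.21 ± 0.10 in si-dnmt (adjusted p = 0.262, and 0.0249 with the block, where it was called). In replicates 3 and 4 alone the si-control response to IFN was called (-0.22, adjusted p = 0.0427). Ctsb had group means of 1004 to 1261 CPM, its groups all overlapped their neighbours in order of mean, and it was called in none of the 11 tests, with log2 values of -0.09 to 0.24 (lowest unadjusted p = 0.121). With the block the response to TNF + IFN in si-dnmt was called (0.23, adjusted p = 0.0245). In replicates 3 and 4 alone Ctsb was called higher with TNF in si-control (0.24, adjusted p = 0.0106) and si-dnmt (0.24, adjusted p = 0.0187) and with TNF + IFN in both (0.23, adjusted p = 0.0111, and 0.32, adjusted p = 0.000955). In replicates 1 and 2 alone none of these 4 was called (-0.22 to 0.15, adjusted p = 0.0903 to 0.605). In GENCODE M21, 32.9% of the exonic bases of Ctsl lie in exons of predicted genes and 12.8% of those of Ctsb in exons of Fdft1 on the opposite strand, so that some of their reads could belong to these genes. The siRNA differences were 0.14 to 0.26 for Ctsl and 0.02 to 0.12 for Ctsb, with SEs of 0.10 and 0.14. Ctsc, the dipeptidyl peptidase that activates granule serine proteases in leukocytes, had 13 to 38 counts per group over 4 libraries and means of 0.176 to 0.411 CPM, and its 8 groups overlapped in order of mean.

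**Figure D3:**
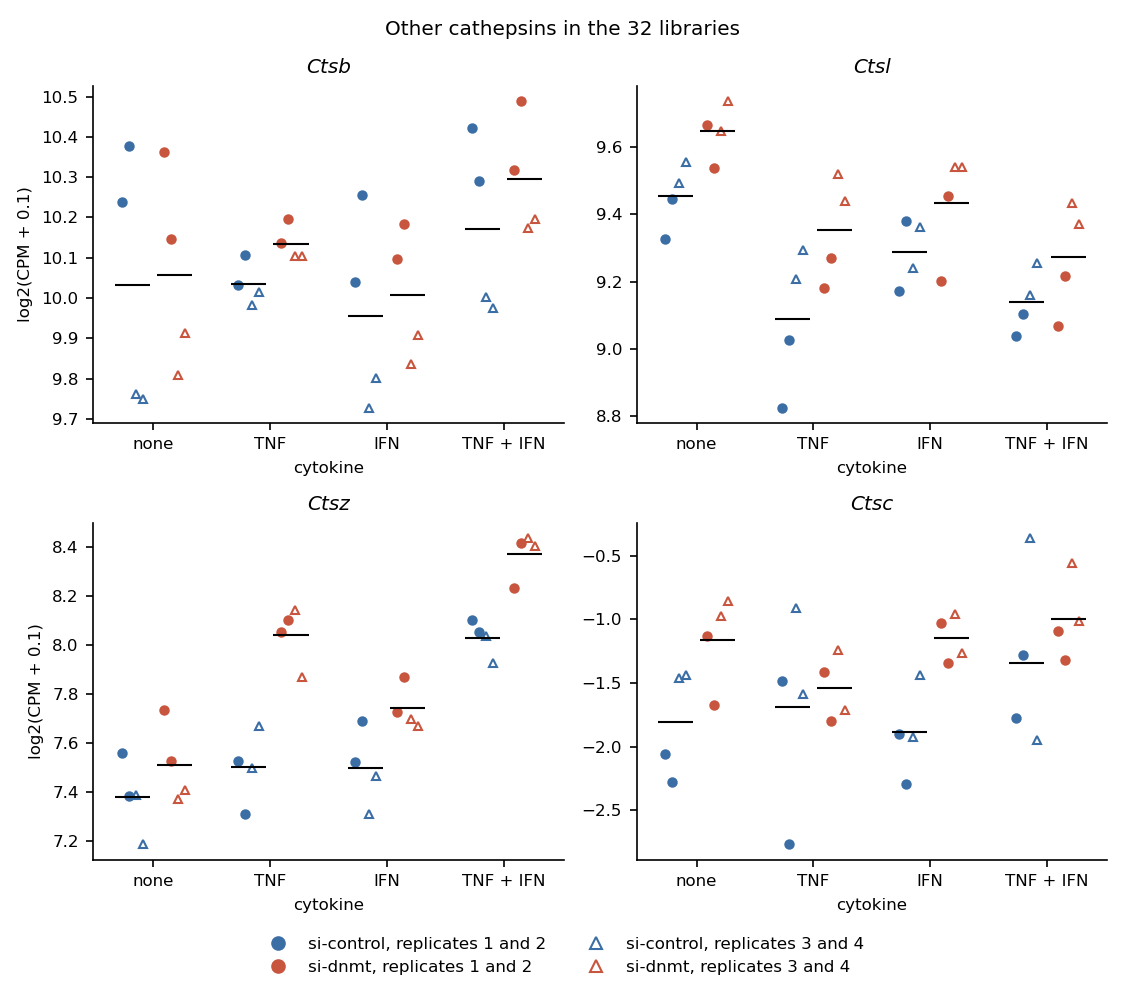
Level of Ctsb, Ctsl, Ctsz and Ctsc as log2(CPM + 0.1) in each of the 32 libraries (y axis, a separate scale per panel) by cytokine (x axis), with si-control in blue, si-dnmt in red, replicates 1 and 2 as filled circles, replicates 3 and 4 as open triangles, and the group mean as a black line. Ctsz is highest with TNF + IFN under either siRNA, Ctsl is lower with TNF than without, and Ctsc stays at group means of 0.176 to 0.411 CPM.

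Levels can be compared between genes only per length, here as mean CPM per kilobase of exons in GENCODE M21. That length joins the exons of all annotated transcripts, and was 6489 bases for Ctsl and 6051 for Ctsb against 1441 for Ctsz. Which transcripts the cells used was not determined, so the order of the genes depends on this choice of length. In si-control the order was Ctsb (176), Ctsz (116), Ctsl (108), Serpina3g (54.0), Serpinb6b (28.7), Serpinb9 (11.2), Serpina3f (0.446), Serpina3n (0.428), Ctss (0.0525) and Ctsc (0.0336). In si-dnmt + TNF + IFN it was Serpina3g (392), Serpina3f (326), Ctsz (230), Ctsb (208), Ctsl (95.7), Serpinb6b (82.7), Ctss (27.8), Serpinb9 (16.4), Serpina3n (0.515) and Ctsc (0.0707). In si-control + TNF + IFN the corresponding level of Serpinb9 was 78.8 and that of Ctss 3.90, and with IFN alone Serpinb9 stood at 40.8 and Ctss at 2.11 in si-control and at 9.65 and 17.1 in si-dnmt. Ctss thus exceeded Serpinb9 in the si-dnmt groups with IFN, whereas the mean of Serpinb9 remained above that of Ctss in si-dnmt without cytokine (2.87 against 0.254) and with TNF (4.91 against 4.09). With TNF the order differed between the replicate sets. Ctss (1358 exonic bases) was at 8.01 CPM in replicates 1 and 2 and 3.11 CPM in replicates 3 and 4. Serpinb9 (3494 exonic bases) was at 17.6 and 16.7 CPM, so that per length Ctss was the higher in replicates 1 and 2.

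**Figure D4:**
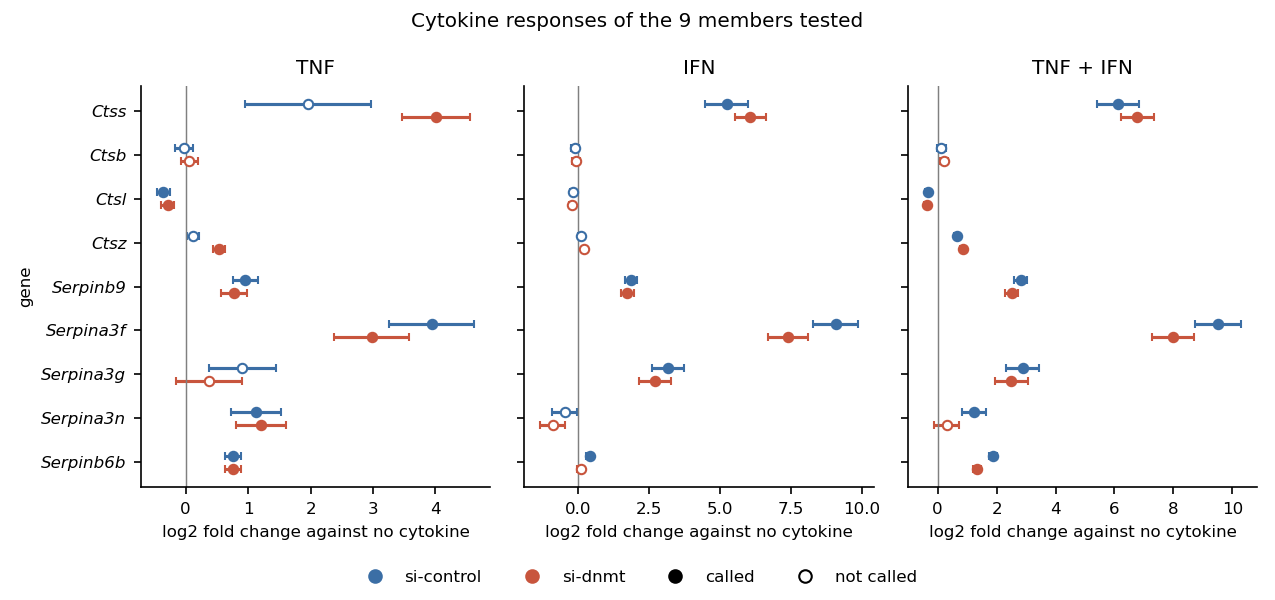
Log2 fold change against no cytokine (x axis, a separate scale per panel) of the 9 members tested (y axis) for TNF, IFN and TNF + IFN, with si-control in blue, si-dnmt in red, bars for ± SE, and filled points where the response was called at an adjusted p under 0.05. Serpina3f and Ctss have the largest IFN responses, and Ctsl lies below 0 with TNF and with TNF + IFN.

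The members were chosen by their levels in these data, so the shares and medians of all genes are background and no test of enrichment. Counted together, 5 of the 9 tested members were called with TNF in si-control (4 higher, 1 lower), beside 30.8% of all tested genes (16.1% higher, 14.6% lower). With IFN 5 were called, all higher, beside 14.5% (8.56% higher, 5.92% lower). TNF + IFN in si-control gave 8 (7 higher, 1 lower) beside 45.2% (23.5% higher, 21.6% lower). In si-dnmt TNF gave 7 (6 higher, 1 lower) beside 21% (11.5% higher, 9.54% lower). IFN in si-dnmt gave 4, all higher, beside 9.01% (6.66% higher, 2.35% lower), and TNF + IFN 7 (6 higher, 1 lower) beside 40.2% (21.3% higher, 18.9% lower). The median log2 change of the 9 was 0.91, 0.42 and 1.88 in si-control and 0.76, 0.23 and 1.33 in si-dnmt, beside medians of all genes of -0.0092, -0.0082 and -0.0058 in si-control and 0.0073, -0.0048 and 0.0061 in si-dnmt. Without the replicate block, no member was called in the 3 siRNA-by-cytokine interactions over all libraries by edgeR or by DESeq2, where 0.0328%, 0.0459% and 0.531% of all genes were called by edgeR. At an unadjusted p under 0.05 there was 1 member for TNF (Ctsz), 0 for IFN and 1 for TNF + IFN (Serpinb6b). The TNF-by-IFN interaction was called for 1 member in si-control (1.06% of all genes) and 1 in si-dnmt (0.354%). With the replicate number as a block, edgeR called Serpina3f for siRNA by TNF + IFN (-1.53, adjusted p = 0.0375). Within single replicate sets members were called for these interactions too, as given in the closing section.

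The other genes of these pathways were 115 in 6 lists, of which 62 were tested. The lists were chosen with earlier results of these data known. Their counts beside the shares of all genes are therefore no test of enrichment. With si-dnmt 14 of the 62 were called without cytokine (13 higher, 1 lower), 18 with TNF (15 and 3), 20 with IFN (18 and 2) and 13 with TNF + IFN (10 and 3), beside 18.5%, 20%, 20.3% and 17.7% of all tested genes in the same order. The median log2 difference of the 62 was 0.18, 0.20, 0.19 and 0.17, and that of all genes -0.0049, 0.0038, -0.0067 and 0.0015. With the block the counts with TNF and with TNF + IFN were 29 and 22. The list of lysosome biogenesis and sorting gave most of these, with 9, 10, 13 and 9 of 28 genes called and a median log2 difference of 0.20, 0.21, 0.22 and 0.20. M6pr, the cation-dependent mannose 6-phosphate receptor that carries cathepsins to lysosomes, was higher with si-dnmt in all 4 states, by 0.59 to 0.66 on the log2 scale. Igf2r, the other mannose 6-phosphate receptor, was 1.11 ± 0.17 higher with TNF (adjusted p = 1.93e-05) and 1.41 ± 0.17 higher with TNF + IFN (adjusted p = 1.33e-06). Npc1, a lysosomal cholesterol transporter, was 0.91 ± 0.20 higher without cytokine (adjusted p = 0.0014). Lamp2, a lysosomal membrane protein, was lower in all 4 states, with log2 differences of -0.91 to -0.66 (adjusted p = 5.22e-05 to 0.00181).

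**Figure D5:**
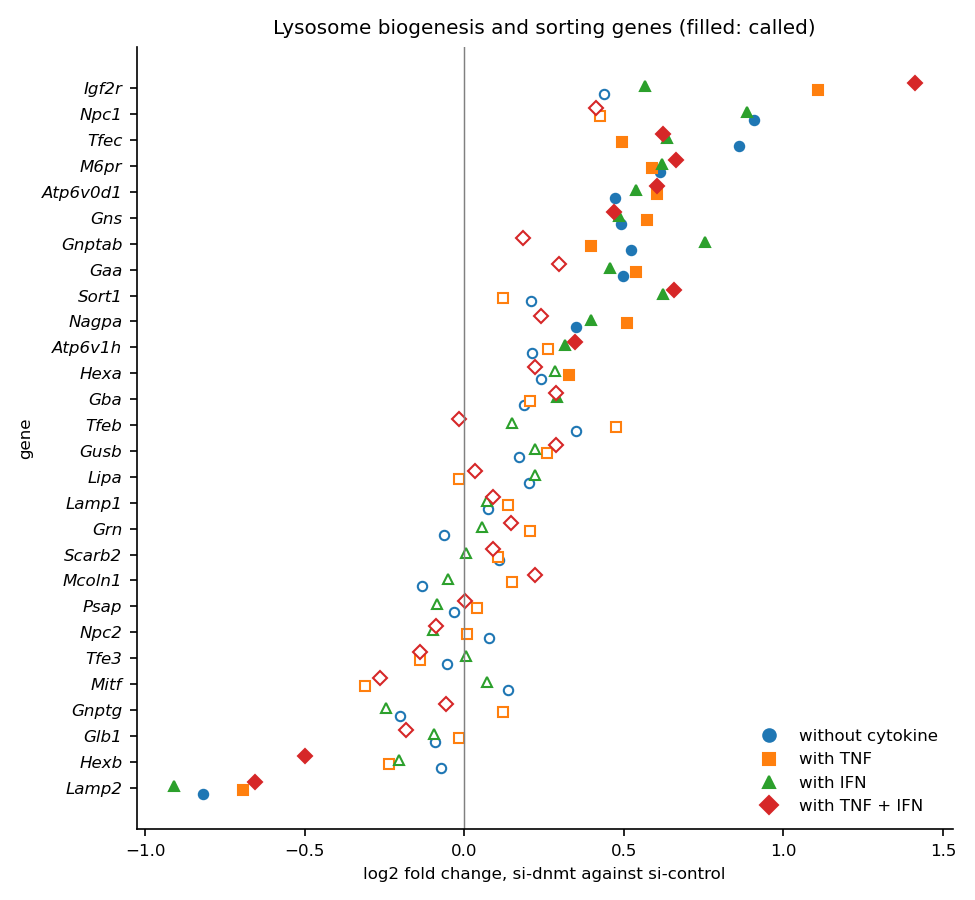
Log2 fold change of si-dnmt against si-control (x axis) for the 28 genes of the lysosome biogenesis and sorting list (y axis), ordered by their mean over the 4 cytokine states, with 1 symbol per state and filled symbols for genes with an adjusted p below 0.05. Igf2r, Npc1, Tfec and M6pr stand at the upper end, and Lamp2 is lower in all 4 states.

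Among the other cathepsins tested, of which there were 6, Ctsf and Ctso were called with si-dnmt. Ctsf was 0.89 ± 0.21 higher with TNF (adjusted p = 0.00305) and 0.77 ± 0.20 higher with IFN (adjusted p = 0.00631). Ctso was 0.37 ± 0.09 higher with TNF (adjusted p = 0.00323). The corresponding differences of Ctso were 0.34 ± 0.09 with IFN (adjusted p = 0.0057) and 0.26 ± 0.09 in cells given both cytokines (adjusted p = 0.0395). No cystatin, the small inhibitors of cysteine cathepsins, was called by edgeR in any of the 4 states, of 4 tested. Serpine2 was 1.12 lower with TNF on the log2 scale, from 6.12 to 2.80 CPM (adjusted p = 0.00849). Of clade A and B serpins, Serpinb9e without cytokine and Serpinb9c with IFN were called as higher, both at group means under 1 CPM. Among substrates and targets, Casp1, the inflammatory caspase, was higher in all 4 states, at 0.0941 against 1.37 CPM without cytokine and 1.30 against 12.3 CPM with TNF + IFN, with log2 differences of 3.26 to 4.48. In si-control without cytokine Casp1 was below the low-count filter, so its place among the tested genes depends on other groups. Cd74, the invariant chain that Ctss trims, was higher with TNF, where si-control stood at 2.51 ± 1.46 CPM (SD, n = 4) and si-dnmt at 12.0 ± 10.6 CPM (edgeR, adjusted p = 0.011), although the libraries overlapped. With IFN it was at 299 ± 186 and 269 ± 150 CPM (adjusted p = 0.876), where Ctss differed by 3.02 on the log2 scale.

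In si-control, 33 of the 62 pathway genes were called with TNF (16 higher, 17 lower), 13 with IFN (10 and 3) and 33 with TNF + IFN (20 and 13), beside 30.8%, 14.5% and 45.2% of all tested genes. With the block the IFN count was 21, and with only the groups of the contrast in the fit the TNF count was 21. With any 1 library of the contrast left out the TNF count was 26 to 31, below the 33 of the main fit. The other cathepsins called with TNF all fell, with Ctsa, Ctsd, Ctsf and the asparaginyl endopeptidase Lgmn changed by -0.84, -0.83, -1.79 and -0.86 on the log2 scale (adjusted p = 1.74e-07 to 0.000557), and the same 4 were called lower with TNF + IFN (-1.96 to -0.72). With IFN, Ctsf was lower (-0.87, adjusted p = 0.00269) and Ctso higher (0.30, adjusted p = 0.0164). Cd74 rose from at most 0.0938 CPM without cytokine to 2.51 CPM with TNF, 299 CPM with IFN and 539 CPM with TNF + IFN on average. Serping1, the inhibitor of complement C1, rose from at most 0.0469 CPM to 36.9 CPM with IFN and 100.4 CPM with TNF + IFN. In si-control without cytokine both Cd74 and Serping1 were below the low-count filter, and they were tested only because other groups passed it. Their calls, and those of other genes near 0 in that group, are no independent support for the rises. The counts above include such genes. The clade A and B serpins called with TNF + IFN were 8 higher and 1 lower of 12 tested. Serpina3i, in tandem with Serpina3g, rose by 2.40 ± 0.53 with IFN (adjusted p = 0.00168), Serpina3m by 2.91 ± 0.86 with TNF (adjusted p = 0.0108), and Casp1 by 2.04 ± 0.55 with IFN (adjusted p = 0.011). Serpinb9e and Serpinb9f were called higher with TNF and with TNF + IFN, but stayed below 1 CPM on average.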

How the data were processed

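RNA-seq was made from 32 cultures of Veravec cells, 8 groups of 4 labelled biological replicates. The authors deposited raw counts per gene, made with featureCounts after trimming with cutadapt 4.9, and the submitters' processing notes also name FastQC 0.12.1, MultiQC 1.27.1 and DESeq2. The aligner, genome build, annotation, and the settings for strand and multiply mapped reads were not given in the sources used.

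The members and gene lists were chosen with earlier results of these data known. Counts were fitted with edgeR 4.0.16 (R 4.3.3) as 8 group means over all 32 libraries, after filterByExpr with a minimum count of 10 (15254 genes kept of 54532 identifiers) and TMM scaling. The quasi-likelihood F test gave p-values, adjusted by the Benjamini-Hochberg method over all genes tested, with calls made below an adjusted p of 0.05. SE is the absolute log2 change divided by the root of F. Levels are CPM with TMM factors, of which 3 counts were worth 0.0865 to 0.185. Ratios of low counts carry exact 95% intervals, which cover counting error only. Libraries of a group differed by 3.63 to 41.6 chi-square units per gene within a replicate set and by 49.7 to 105 between the sets. All 32 were counted as separate samples, but these values do not show that libraries of the same set are independent. The adjusted p-values of a replicate set alone rest on that smaller spread, which may be technical.

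All 10 members were described in every comparison. Of the pathway lists, the 4 called genes with the largest change and any other called cathepsin were named, for Ctss and Serpinb9 the 4 genes of most similar group means, and of the markers those near 0 and those most abundant. Same-numbered libraries of different groups deviated together (lowest correlation 0.297 over 112 pairs, median 0.415, against 0.409 for the other number of the same set and at most -0.239 between sets). Deviations were taken from group means, which by itself lowers the values between sets. The mean correlation was highest with the own number for 24 of 32 libraries. These values separate the sets, and do not settle whether equal numbers are pairs. The main fit has no term for set or number. The fit with the replicate number as a block is an alternative, given where it changes a call. Alternatives were DESeq2 1.42.0, RLE scaling, no filter, each replicate set alone, only the groups of a contrast, and leaving out each library. A gene of the lists that the rule would name is not reported here.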

Additional observations from a re-analysis of the deposited data

Results flagged for a closer look

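Among 80 groups of 4 libraries examined (10 members in 8 groups), 1 library lay far from the others of its group. This was Ctsz in si-dnmt + TNF + IFN replicate 1, at 300.1 CPM against 339 to 346 CPM in the other 3, a gap of 0.843 of the whole range, above Dixon's 95% critical value. By chance about 1 in 20 such groups would show this.

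Serpinb6b was flagged because the estimate of its siRNA difference had opposite signs in different cytokine states. It was 0.19 on the log2 scale with TNF, where the libraries overlapped (115 to 138 CPM in si-dnmt and 91.5 to 129 CPM in si-control). With TNF + IFN it was -0.35, and every si-dnmt library was below every si-control library, as for 10.9% of all tested genes. The difference between 0.19 and -0.35 was not tested.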

How the results depend on the processing

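The siRNA differences of Ctss and Serpinb9 kept their direction under all alternatives run. RLE scaling ended no call. DESeq2 added 2 calls among the members' cytokine and TNF-by-IFN tests. These were Ctss with TNF (adjusted p = 0.0299) and Serpinb6b TNF-by-IFN (0.0226), both in si-control. TNF-by-IFN in si-dnmt of Serpinb9, main value -0.01, became 0.0137 with DESeq2, 0.0142 with RLE and 0.0188 in replicates 3 and 4. The cause of the changes below was not tested. Few counts limit Ctss without IFN, Serpina3n and Ctsc.

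With the replicate block, 8 calls given in the report were gained and no other member call changed. Members called by the block were 1 for siRNA by TNF + IFN, 3 for TNF-by-IFN in si-control and 2 in si-dnmt, and pathway genes called were 29 (si-dnmt with TNF), 22 (si-dnmt with TNF + IFN) and 21 (si-control with IFN). The block gave 6e-04 for Ctsb with TNF in si-control.

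With replicates 1 and 2 alone, members called were 1 for siRNA by IFN, 2 for siRNA by TNF + IFN, and 5 and 3 for TNF-by-IFN in si-control and si-dnmt, and pathway genes called were 22 without cytokine and 23 with TNF + IFN for si-dnmt and 24 for IFN in si-control. Directions turned for Ctss siRNA by TNF + IFN (-0.11), Ctsb with TNF in si-dnmt (-0.086), Ctsz with TNF in si-control (-0.0355), Serpina3n with TNF + IFN in si-dnmt (-0.16) and Serpinb6b siRNA by TNF (0.0233). Serpina3n was then not called with TNF in either siRNA or with TNF + IFN in si-control (adjusted p = 0.15, 0.183 and 0.058, edgeR). With replicates 3 and 4 alone, members called were 9 for TNF in si-control, 2 for siRNA by TNF, 2 for siRNA by IFN, 3 for siRNA by TNF + IFN, and 3 and 4 for TNF-by-IFN in si-control and si-dnmt, and pathway genes called were 24, 31, 31 and 28 for si-dnmt in the 4 states and 23 for IFN in si-control. Directions turned for Ctsb with TNF (0.24) and IFN (0.0099) in si-control and IFN in si-dnmt (0.0124), Serpina3n with IFN in si-control (0.48) and Serpinb6b with IFN in si-dnmt (-0.19).

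With only the groups of a contrast, TNF-by-IFN in si-control had 0 members called, and TNF in si-control 21 pathway genes. Serpina3f TNF-by-IFN (adjusted p = 0.125), Ctsl with TNF (0.0536) and Serpinb6b with IFN (0.0772), all in si-control, were then not called. DESeq2 gave 2 members for TNF-by-IFN in si-control. Without the filter, 4 calls were lost, Ctsl with TNF + IFN in si-control (adjusted p = 0.0667) and TNF in si-dnmt (0.123), Serpina3n with TNF in si-dnmt (0.0523) and Serpinb6b with IFN in si-control (0.0571).

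Leaving out 1 library at a time, members called were 0 to 2 for TNF-by-IFN in si-control and 0 to 1 in si-dnmt, 4 to 5 for TNF in si-control, 5 to 6 for TNF in si-dnmt and 0 for each siRNA-by-cytokine interaction. Log2 values ranged from -0.18 to 1.26 for Ctss siRNA by IFN and -0.37 to 1.06 for siRNA by TNF + IFN (the lowest of each without si-control replicate 4), and -3.57 to -2.95 for its TNF-by-IFN in si-dnmt. For Ctsb they were -0.12 to 0.10 (TNF) and -0.22 to 0.0358 (IFN) in si-control and -0.0172 to 0.17 and -0.14 to 0.0511 in si-dnmt. For Serpinb9 they were -0.26 to 0.0223 (siRNA by IFN), -0.12 to 0.12 (TNF-by-IFN in si-control) and -0.16 to 0.14 (in si-dnmt). Serpinb6b siRNA by TNF was -0.0961 to 0.0954. Pathway genes called with si-dnmt were 12 to 14 without cytokine, 14 to 18 with TNF, 15 to 20 with IFN and 12 to 14 with TNF + IFN. In si-control they were 26 to 31 with TNF, 11 to 15 with IFN and 32 to 36 with TNF + IFN.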
